A study of Mus musculus with 12 samples.

Results

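Pax5, Ebf1, Spib, Pou2af1, Pou2f2, Bcl11a, Bach2, Irf8, Irf4 and Mef2c were taken from the expression table by their gene names. They are 10 of the 41128 genes in the table, and all 10 were found as 1 row each. Pou2af1 encodes a coactivator and the other 9 encode DNA-binding transcription factors. Expression was measured by RNA sequencing of spleen cells of 6 to 8 week old C57BL/6J mice. There were 12 libraries in 4 groups of 3, namely B cells of females, B cells of males, T cells of females and T cells of males. The B cells were resting cells lacking CD43, and the T cells were naive cells carrying CD4 and CD62L, left after other cells had been removed with magnetic beads and then sorted for CD4, high CD62L, low CD44 and no CD25. No genotype, agent or treatment was given for any group. Cells of several mice were pooled for each library, so that p-values measure only how far pools of mice differed.

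B cell identity is set up in a cascade of transcription factors. Ebf1, together with the E proteins, switches on early B cell genes and Pax5. Pax5 then commits the cell to the B lineage by activating genes of the B cell receptor complex and silencing genes of other lineages. Spib, Irf4 and Irf8 act together at composite sites, where an Ets factor recruits an interferon regulatory factor. Pou2f2, also named Oct-2, binds the octamer of immunoglobulin promoters, and Pou2af1, also named OBF-1 or OCA-B, is its coactivator. Bach2 represses the plasma cell programme, Bcl11a is a zinc finger factor that early B cells need, and Mef2c acts downstream of the B cell receptor. Several of these genes are also used outside the B lineage: Bach2 restrains the differentiation of T cells, Irf4 is induced in activated T cells, and Irf8 is central to dendritic cells and monocytes.

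Levels are given as adjusted TPM, the name in the deposited table. TPM is a share of transcripts corrected for length, so that levels of genes are compared on that scale, while the adjustment itself is not described in the sources used here. Differences are log2 fold changes on the scale log2(adjusted TPM + 1), which understates the change of genes near 0, and adjusted p-values come from limma with Benjamini-Hochberg adjustment over 12520 genes that had at least 1 adjusted TPM in at least 3 libraries. The threshold was an adjusted p of 0.05. Totals of adjusted TPM ran from 561020 to 1453940 and the number of genes at 1 or above from 11122 to 11543 per library, and sequencing depth is unknown. Protein-coding genes made up 38.5% to 68.0% of a total, and the largest single gene, Yam1 or Rn7sk, 11.4% to 37.4%. Male T 6 had the highest total, the lowest protein-coding share and the highest share of a single gene (Yam1). The summed level of 5 T cell markers (Cd3d, Cd3e, Cd4, Lck and Tcf7) was 1020 to 1190 in T libraries and 9.76 to 14.1 in B libraries. The summed level of 4 B cell markers (Cd79a, Cd79b, Ms4a1 and Cd22) was 2410 to 2860 in B libraries and 0.896 to 5.35 in T libraries, so the labels of both cell types fitted their markers. The T libraries numbered 6 stood apart from the other 4 T libraries. Female T 6 had the highest sum of B cell markers among T libraries, and both numbered 6 were shifted towards long genes. The calls of B against T cells were therefore also made without both of them, an alternative added after the data had been seen.

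The starts of some of the genes are shown first. RefSeq promoter windows of GRCm38.p6, the build of the deposited files, were found for all 10 genes, 14 windows in all, each from 250 bases before to 50 bases after an annotated start. The TATA letters TATAAA were found on either strand in 4 of the 14 windows, of 3 genes, and in 13.6% of 32851 windows of the same length. Irf8 (at position -31 of its first window) and Irf4 (at -26) hold them on the gene's own strand and are shown, with these letters in capitals in the 170 bases before the start. Mef2c holds them on the opposite strand, at -107 in one window and at -22 in another.
Irf8 (chr8:120736188-120736357, plus strand): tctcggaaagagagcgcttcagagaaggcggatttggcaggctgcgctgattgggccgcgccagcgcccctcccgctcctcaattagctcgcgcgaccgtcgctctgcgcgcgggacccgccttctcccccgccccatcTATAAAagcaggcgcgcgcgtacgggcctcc
Irf4 (chr13:30749063-30749232, plus strand): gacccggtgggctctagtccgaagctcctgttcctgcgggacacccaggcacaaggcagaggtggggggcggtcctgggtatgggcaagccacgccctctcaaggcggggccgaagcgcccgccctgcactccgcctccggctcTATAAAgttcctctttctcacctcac

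Spib is shown because the palindromic core CCCNNGGG, the centre of the sequence that Ebf1 binds, lies before its start in 2 overlapping matches (at -65 and -64, in capitals). The first Irf8 window also holds them, at 5 after the start, and they are in 13.7% of all windows.
Spib (chr7:44532072-44532241, minus strand): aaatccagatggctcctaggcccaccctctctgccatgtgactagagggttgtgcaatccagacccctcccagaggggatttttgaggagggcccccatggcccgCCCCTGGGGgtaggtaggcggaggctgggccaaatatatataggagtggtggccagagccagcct

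Bach2 and Bcl11a are shown for the letters GGAANNGAA of composite Ets and IRF sites, in capitals, at -16 on the opposite strand and at -159 on the gene's own strand. The same letters were found in windows of Pou2f2 (at -119, where the 9 bases TTCCCTTCC are those of Bach2) and of Mef2c (at 11 after the start), and in 8.24% of all windows. The Bach2 stretch lies within the gene's own span and outside annotated exons in GENCODE M21, since RefSeq places that start downstream of the gene's first base. Of the printed stretches, 25 bases of Bcl11a and 7 of Irf4 lie in annotated exons of these genes, and none of the others do.
Bach2 (chr4:32417265-32417434, plus strand): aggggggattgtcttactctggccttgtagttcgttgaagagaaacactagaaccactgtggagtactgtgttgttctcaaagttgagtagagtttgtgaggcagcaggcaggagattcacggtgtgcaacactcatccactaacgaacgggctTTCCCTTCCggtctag
Bcl11a (chr11:24080525-24080694, plus strand): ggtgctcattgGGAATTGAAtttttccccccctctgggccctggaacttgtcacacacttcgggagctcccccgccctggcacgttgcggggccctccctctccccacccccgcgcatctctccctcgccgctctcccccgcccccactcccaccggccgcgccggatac

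No member window held the octamer ATGCAAAT (1.74% of all windows) or the Ets letters AGGAAGT (9.35%), and CAGGTG, an E-box, was found in a second Irf8 window alone (20.2% of all windows). Both strands were searched throughout. A match describes letters and does not show binding.

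All 10 genes were higher in B cells than in T cells, and in none of them did a T library reach the lowest B library. Of all tested genes 31.4% were higher in B cells past the threshold and 41.6% were lower there, and 11.8% were higher with a log2 fold change of at least 1. Of all tested genes 24.2% had every B library above every T library. All 10 genes met each of the criteria for higher in B cells, and none was lower there. The median log2 fold change of the 10 genes was 6.19, against -0.09 over all tested genes. Members were proposed as B lineage factors, so that the direction was given by their choice. Earlier results of these data were known at that choice, so the sizes are described and are not independent of it. In bulk samples, fewer cells of a type and less RNA per cell cannot be told apart.

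**Figure D1:**
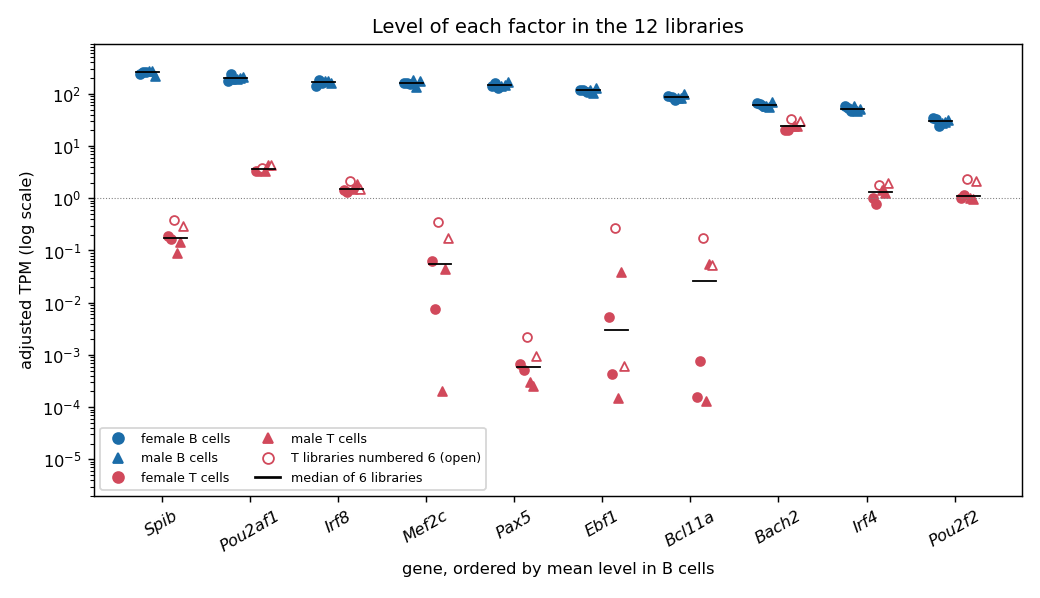
Adjusted TPM on a log scale for each of the 10 genes in the 6 B libraries (blue) and 6 T libraries (red), with circles for females, triangles for males, open symbols for the T libraries numbered 6 and bars for the median of 6. The B levels lie between 24.4 and 271, while the T levels run from 0.000128 for Bcl11a to 32.8 for Bach2, the gene whose T levels come closest to its B levels.

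The pair that commits cells to the B lineage was high in every B library and at or near 0 in most T libraries. Pax5 (ENSMUSG00000014030, chromosome 4, 44524757 to 44710487, minus strand, GENCODE M21 on GRCm38) had 128 adjusted TPM in the lowest, 146 in the median and 166 in the highest of the 6 B libraries. In T libraries it ran from 0.000246 over a median of 0.000584 to 0.00218. B and T libraries had means of 148 ± 13.6 and 0.000807 ± 0.00072 (SD, n = 6 each), and the log2 fold change was 7.21 (SE 0.06, 95% CI 7.08 to 7.34, adjusted p = 4.8e-17). T levels of this size carry little precision, since the upper bound deposited for a value was 4.98 to 11.6 times the lower bound. The lower bound of the lowest B library was still 37700 times the upper bound of the highest T library.

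Ebf1 (ENSMUSG00000057098, chromosome 11, 44617317 to 45008091, plus strand) ran from 105 over a median of 117 to 129 in B libraries. In T libraries it was 0.0053, 0.00043 and 0.264 in females and 0.00015, 0.039 and 0.00062 in males. A single library, female T 6, thus held most of the Ebf1 signal of the T cells. The means were 115 ± 8.99 and 0.0516 ± 0.105 (SD, n = 6 each), with a log2 fold change of 6.79 (SE 0.07, 95% CI 6.63 to 6.95, adjusted p = 3.1e-16). Within B cells the ratio of Pax5 to Ebf1 was narrow, between 1.2 and 1.42 with a median of 1.25, and Pax5 exceeded Ebf1 in 6 of 6 B libraries.

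The octamer factor and its coactivator differed in level from each other and kept a low signal in T cells. Pou2af1 (ENSMUSG00000032053, chromosome 9, 51213708 to 51240080, plus strand) ran from 177 over 197 to 235 adjusted TPM in B libraries and from 3.3 over 3.61 to 4.37 in T libraries. The groups lay far apart, with a log2 fold change of 5.42 (SE 0.08, 95% CI 5.25 to 5.58, adjusted p = 3.5e-15). Pou2f2 (ENSMUSG00000008496, chromosome 7, 25087344 to 25179726, minus strand) ran from 24.4 over 30.5 to 34.3 in B libraries. In T libraries Pou2f2 was 1.00, 1.18 and 2.31 in females and 1.00, 0.983 and 2.18 in males, so that both libraries numbered 6 held about 2.15 times the mean of the other 4. Its log2 fold change was 3.69 (SE 0.15, 95% CI 3.36 to 4.02, adjusted p = 1.3e-10). In B cells the coactivator was 5.15 to 8.02 times as abundant as Pou2f2, with a median of 6.92, and in T cells 1.66 to 4.45 times.

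Spib, the Ets factor, was the highest of the 10 genes in B cells. Spib (ENSMUSG00000008193, chromosome 7, 44525993 to 44532071, minus strand) ran from 221 over 260 to 271 adjusted TPM in B libraries and from 0.0907 over 0.177 to 0.383 in T libraries. Its log2 fold change of 7.71 (SE 0.07, 95% CI 7.56 to 7.87, adjusted p = 1.2e-16) was the largest among the 10 genes and ranked 18 towards B cells among the 12520 tested genes. This order depends on the 1 added to T levels near 0. With 0.1 added instead, Spib had 9.73, below Pax5 (10.51), Mef2c (9.84) and Ebf1 (9.76). Only the B libraries held Spib at more than 1 adjusted TPM.

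Both interferon regulatory factors of the group were higher in B cells and were found at about 1 to 2 adjusted TPM in T cells. Irf8 (ENSMUSG00000041515, chromosome 8, 120736358 to 120756694, plus strand) ran from 142 over 170 to 185 in B libraries and from 1.31 over 1.5 to 2.17 in T libraries, with a log2 fold change of 6.01 (SE 0.09, 95% CI 5.82 to 6.20, adjusted p = 4.4e-15). Irf4 (ENSMUSG00000021356, chromosome 13, 30749226 to 30766976, plus strand) ran from 47.6 over 51.7 to 58.5 in B libraries. In T libraries Irf4 was 0.991, 0.792 and 1.81 in females and 1.44, 1.24 and 1.92 in males, with a log2 fold change of 4.52 (SE 0.11, 95% CI 4.28 to 4.76, adjusted p = 6.9e-13). Irf8, which represses the plasma cell route that Irf4 promotes, exceeded Irf4 in every B library, by 2.43 to 3.7 times with a median of 3.3. In T libraries the same ratio ran from 0.771 to 1.66, so that neither gene was above the other throughout.

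Bcl11a and Mef2c showed the pattern of Ebf1. Bcl11a (ENSMUSG00000000861, chromosome 11, 24078056 to 24174123, plus strand) ran from 75.7 over 86.1 to 97.2 adjusted TPM in B libraries and from 0.000128 over 0.0262 to 0.172 in T libraries, with a log2 fold change of 6.38 (SE 0.07, 95% CI 6.23 to 6.53, adjusted p = 3.1e-16). Mef2c (ENSMUSG00000005583, chromosome 13, 83504034 to 83667080, plus strand) ran from 137 over 163 to 181 in B libraries and from 0.000199 over 0.0539 to 0.345 in T libraries. Its log2 fold change was 7.21 (SE 0.09, 95% CI 7.01 to 7.41, adjusted p = 1.1e-15). For both genes the highest T library was female T 6.

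Bach2 (ENSMUSG00000040270, chromosome 4, 32238804 to 32586108, plus strand) was the member with the smallest difference. It had 66.1, 62.7 and 58.1 adjusted TPM in female B libraries and 58.4, 55.4 and 70.8 in male B libraries. In T libraries it had 20.0, 19.9 and 32.8 in females and 23.9, 23.7 and 29.8 in males, so that the lowest B library stood above the highest T library. The means were 61.9 ± 5.79 and 25.0 ± 5.26 (SD, n = 6 each), a ratio of 2.47 and a log2 fold change of 1.29 (SE 0.12, 95% CI 1.03 to 1.55, adjusted p = 5.8e-07). Bach2 was above 73.7% of tested genes in T cells and above 91.3% in B cells. Among the 10 genes it was alone in exceeding 5 adjusted TPM in any T library, the next being Pou2af1 at 4.37.

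The order of levels in B cells was Spib, Pou2af1, Irf8, Mef2c, Pax5, Ebf1, Bcl11a, Bach2, Irf4 and Pou2f2, from a median of 260 to one of 30.5 adjusted TPM. Irf8 (168 ± 15.5, SD, n = 6) and Mef2c (163 ± 16.6) could not be ordered, with Irf8 above in 3 of 6 libraries, and Mef2c was above Pax5 in 5 of 6. Every other neighbour held its place in 6 of 6 B libraries, although ranges overlapped except between Ebf1 and Bcl11a, Bcl11a and Bach2, and Irf4 and Pou2f2. Pou2f2 at the lower end was above 78.6% of tested genes in B cells and Spib at the upper end above 98.1%. In T cells the order was led by Bach2, Pou2af1 and then Irf8, Pou2f2 and Irf4, of which the last 3 overlapped and changed places between libraries.

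The T levels split the 10 genes in 2 sets of 5 when set against what the same libraries held of B cell surface markers. In T libraries the 4 markers had a median of 0.0179% to 0.0952% of their B cell level in 5 libraries and of 0.189% in female T 6, where the highest, Cd79a, was at 0.322%. Bach2 stood at 32.1% to 53.0% of its B cell level, Pou2f2 at 3.27% to 7.69%, Irf4 at 1.51% to 3.65%, Pou2af1 at 1.63% to 2.16% and Irf8 at 0.782% to 1.3%. Each of these 5 was above all 4 markers in 6 of 6 T libraries. Spib, Mef2c, Bcl11a, Ebf1 and Pax5 were above all 4 markers in 0 of 6, and the highest of their values was 0.229%, for Ebf1 in female T 6. Pax5 was lowest by its mean share and ran from 0.000167% to 0.00148%, below the median marker in every T library. Single values of Mef2c, Ebf1 and Bcl11a were lower than Pax5, such as 0.000122%, 0.000127% and 0.000149% in male T 4, against 0.000205%. The part of B cell RNA in the T levels of single genes was not tested beyond this comparison.

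**Figure D2:**
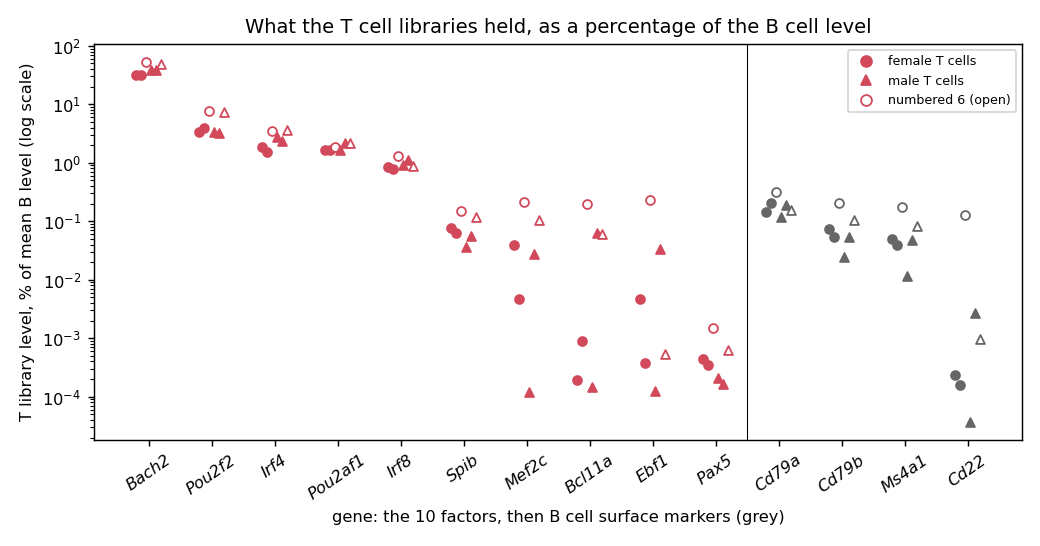
Level of each gene in the 6 T libraries as a percentage of its mean level in B cells, on a log scale, for the 10 factors (red) and 4 B cell surface markers (grey), with open symbols for the libraries numbered 6. Bach2, Pou2f2, Irf4, Pou2af1 and Irf8 lie at 0.782% or above in every T library, while the markers lie at 0.322% or below.

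Of the 10 genes 6 (Pax5, Spib, Pou2f2, Bach2, Irf4 and Mef2c) had both T libraries numbered 6 above the other 4, against 17.0% of tested genes. Pax5, Spib and Mef2c were under 1 adjusted TPM in every T library and were tested only because of their B levels. The order of T libraries for these genes rests on values near 0, so the count is not a like comparison with that share. The split was noticed after the values had been seen, and it is described without a test. Bach2 had a mean of 31.3 adjusted TPM in both libraries numbered 6 and 21.9 in the other 4, a ratio of 1.43, and Irf4 had a ratio of 1.67. Of 16 partners of the factors, 5 lay above the other 4 in both of these libraries, among them Myb (1.55), Ikzf3 (1.47) and Rel (1.39), and 4 lay below, namely Ets1 (0.905), Tcf3 (0.849), Klf2 (0.755) and Id3 (0.676). Values that moved with this split were the median of the B cell markers and the weight of long genes. The marker median was 0.189% of the B cell level in female T 6 and 0.0952% in male T 6. Of the 4 B cell markers 2 (Cd79b and Ms4a1) lay above the other 4 libraries in both. Cd79a and Cd22 did not, and in male T 6 they were below male T 5 (0.153% against 0.191% and 0.000985% against 0.00265%). The weight of long genes is a difference of median deviations from the group mean. Genes spanning at least 100 kb minus genes under 10 kb gave 0.13 in female T 6 and 0.06 in male T 6. The other 4 T libraries gave -0.08 to 0.01, on the log2 scale. Such deviations are relative within each group, so a higher value in a single library goes with lower values in the others. Of 5 T cell markers 4 lay below the other 4 libraries in both, with ratios from 0.839 (Lck) to 0.918 (Cd4). Of 5 monocyte and macrophage markers 3 lay above in both, among them Lyz2 (7.19) and Adgre1 (18.6), and their sum was highest in female T 6 (5.37, from 1.08 in the lowest T library). Pou2f2 spans 92.4 kb and Bach2 347 kb, whereas Irf4 spans 17.8 kb. The part of any of these in the levels of the 10 genes was not tested. Without both libraries the log2 fold change of B against T cells was 1.46 for Bach2, 3.92 for Pou2f2, 4.67 for Irf4, 5.46 for Pou2af1, 6.06 for Irf8, 6.42 for Bcl11a, 6.84 for Ebf1, 7.21 for Pax5, 7.31 for Mef2c and 7.79 for Spib. All 10 calls remained there and in each of the other 20 alternatives run on them.

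Within B cells the 10 genes varied little between pools, with coefficients of variation from 7.75% for Spib to 12.7% for Pou2f2. Pou2f2 had the widest spread for its level, an SD of 0.201 on the log2 scale, above that of 90.3% of 2358 genes within a factor of 1.5 of its level, for which the median SD was 0.108. The other 9 genes were above 38.0% to 73.6% of genes of like level. Spib and Bach2 went in opposite directions: in male B 3 Spib was lowest (221) and Bach2 highest (70.8), and in male B 2 Spib was at 269 and Bach2 lowest (55.4). Ebf1 was also highest in male B 3 (129) and lowest in male B 2 (105). In male B 3 and female B 1 the median deviation from the group mean was higher for genes spanning at least 100 kb than for those under 10 kb. The difference was 0.08 in each, and it was below 0 in the other B libraries. Spib is the shortest of the 10 genes (6.08 kb) and Ebf1 (391 kb) and Bach2 the longest, and the part of this shift in their values was not tested. Pou2af1 (235) and Irf8 (185) were highest in female B 2, where the summed level of 4 germinal centre markers was also highest (45.5, against 23.9 in the lowest B library).

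**Figure D3:**
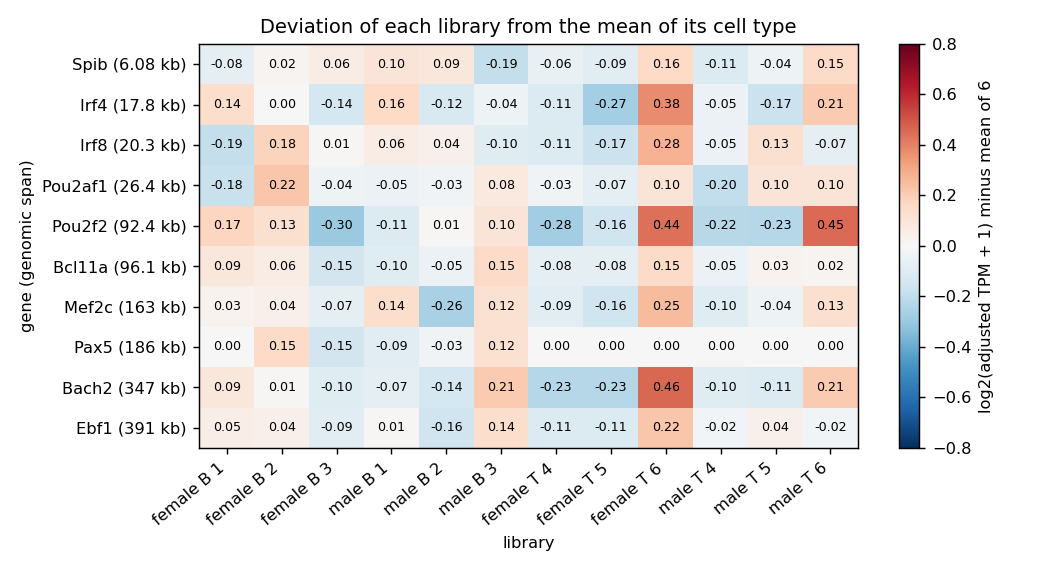
Deviation of each library from the mean of the 3 libraries of its group, that is of 1 sex and cell type, as log2(adjusted TPM + 1). The 10 genes are ordered by genomic span from 6.08 to 391 kb. The title and colour scale of the picture name the cell type, but the mean was taken over each group. Female T 6 is above the mean for 9 genes, by up to 0.46 for Bach2, with Pax5 at 0 in every T library on this scale, and male B 3 is lowest for Spib (-0.19) and highest for Bach2 (0.21).

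No difference between females and males passed the threshold for the genes that could be compared, all 10 in B cells and 5 in T cells. In B cells 0 of 10 were called, against 0.144% of tested genes, with female minus male differences from -0.10 (Pax5) to 0.05 (Pou2f2) on the log2 scale. In T cells Pax5, Ebf1, Spib, Bcl11a and Mef2c were under 1 adjusted TPM in every library and had been tested only because of their B levels, so that T cells give no test of the sexes for these 5. Of the other 5, which reached 1 in T cells, 0 were called, against 0.104% of tested genes, with differences from -0.22 (Irf4, 95% CI -0.57 to 0.12) to 0.07 (Pou2f2, 95% CI -0.40 to 0.53). The difference between both sex effects was past the threshold for 0 of these 5 genes and for 0% of tested genes, with estimates from -0.07 (Irf8) to 0.25 (Irf4). By limma 0 of the factors had an unadjusted p under 0.05 in any of these comparisons, and the smallest adjusted p was 1.0. The 95% confidence intervals lay within -0.42 to 0.51 for the 10 genes in B cells and within -0.57 to 0.53 for the 5 genes in T cells. The limits in B cells were those of Pou2f2, and Pax5 had a narrower interval there, -0.29 to 0.09. The fit used 1 spread per gene for B and T libraries together, so the widths in B cells also follow the T libraries. On the log2 scale the SD within B and within T cells was 0.135 and 0.001 for Pax5, and 0.201 and 0.388 for Pou2f2. The narrow interval of Pax5 thus does not show that its sex difference in B cells is better bounded. Sex differences inside the interval of each gene remain possible. Within T cells, where same-numbered female and male libraries deviated together, the fit with the replicate number as a block also called 0 of the 5 genes it tested.

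The relatives of the 10 genes did not share one direction. Of 15 rows that could be tested among 21 rows for 20 family members, 9 were higher in B cells, 5 were lower there and 1 did not pass, with a median log2 fold change of 0.69. With libraries rescaled to equal totals 9 were higher and 2 lower, and with a filter at 5 adjusted TPM 5 of 11 were higher and 5 lower. Bcl11b, which commits cells to the T lineage, was the mirror of Bcl11a: B libraries had a mean of 0.0117 ± 0.0063 adjusted TPM and T libraries one of 94.3 ± 5.43 (SD, n = 6 each), with a log2 fold change of -6.56 (SE 0.05, 95% CI -6.66 to -6.45, adjusted p = 2.9e-17). Bach1, the other BACH repressor, was at 11.3 and 14.2 in B and T cells (-0.31), and its sign turned to 0.05 when libraries were rescaled to equal totals. Bach2 exceeded Bach1 by 4.73 to 6.45 times in B libraries and by 1.4 to 2.25 times in T libraries.

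Among Ets relatives, Spi1 (PU.1), the myeloid and B cell factor closest to Spib, had means of 31.6 ± 3.15 and 0.0489 ± 0.0659 in the B and T libraries (SD, n = 6 each), and Spib exceeded it by 6.88 to 9.96 times in B libraries. Spic was low in both (1.25 and 0.0268, log2 fold change 1.12). The IRF family went both ways. Irf5, which acts in innate signalling, was higher in B cells (109 ± 6.7 against 1.08 ± 0.281, log2 fold change 5.73, adjusted p = 6.4e-15), as was Irf2 (20.7 against 7.66, 1.34). Irf7 was higher in T cells (19.3 against 45.6, log2 fold change -1.21, adjusted p = 5.8e-05), as were Irf1 (75.9 against 129, -0.76) and Irf9 (56.7 against 70.6, -0.32). With libraries rescaled to equal totals Irf1 lost its call (-0.38) and the sign of Irf9 turned (0.06). Irf3 did not pass (59.9 against 62.1, adjusted p = 0.42).

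Mef2c stood apart from the other MEF2 genes in size. Mef2d had 35.5 against 18.2 adjusted TPM (log2 fold change 0.93), Mef2a differed by 0.30 on the log2 scale and Mef2b by 1.10, at 1.79 against 0.262. Mef2c was 3.66 to 5.54 times as abundant as Mef2d in B libraries, but in T libraries Mef2c was at most 0.0162 times as abundant. Pou2f1, the widely expressed octamer factor also named Oct-1, is listed in 2 rows, with 4.89 against 2.67 in the first and 1.95 against 0.108 in the other, and its level is uncertain because reads can be split between them. Pax2, Pax8, Ebf2, Ebf3, Ebf4 and Pou2f3 were under the filter, with means under 0.001 in both cell types. Of the Pax and EBF genes listed, Pax5 and Ebf1 were thus the ones measured above that level.

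**Figure D4:**
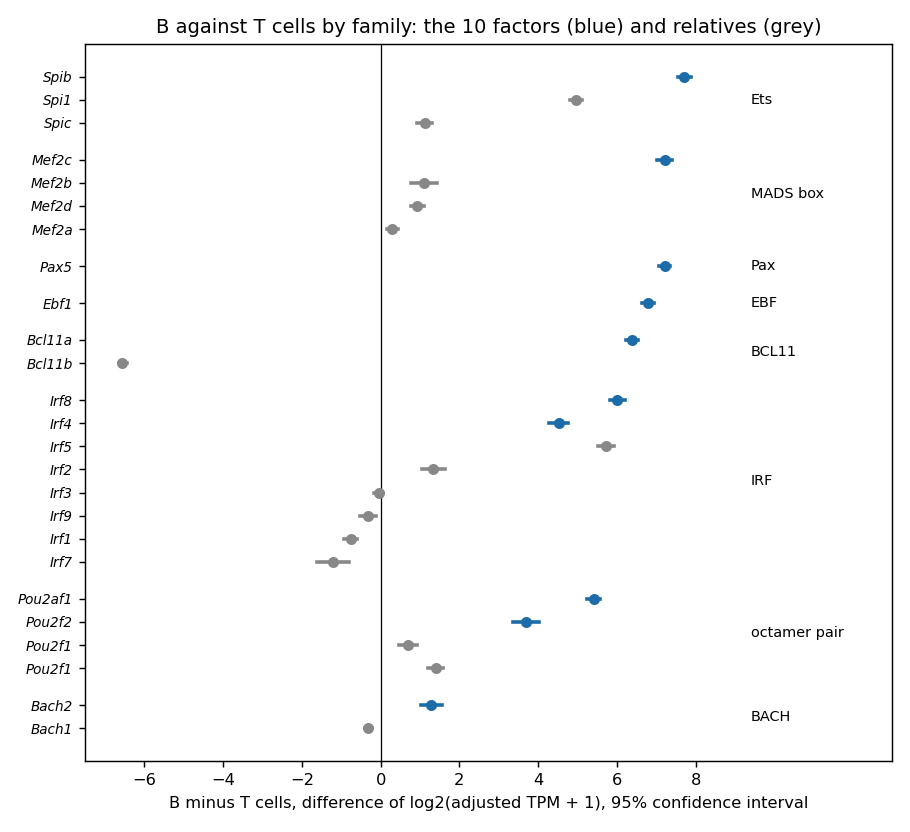
Log2 fold change of B against T cells with its 95% confidence interval for the 10 factors (blue) and their tested relatives (grey), ordered by family. Positive values are higher in B cells, and Bcl11a at 6.38 and Bcl11b at -6.56 lie at opposite ends.

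Partners, that is other regulators known to act with the 10 factors in B cells, were expressed in both cell types more evenly. All 16 were tested, of which 8 were higher in B cells, 4 were lower there and 4 did not pass, with a median of 0.15. Tcf4, an E protein, had the largest difference (41.5 ± 1.87 against 0.659 ± 0.0678, SD, n = 6 each, log2 fold change 4.68, adjusted p = 3.1e-16). It was followed by the Ikaros factor Ikzf3 (179 against 22.2, 2.97), the NF-kB subunit Rel (38.4 against 6.51, 2.40), the repressor Bcl6 (28.5 against 6.46, 1.97) and the E protein Tcf3 (66.9 against 24.9, 1.40). Higher in T cells were Ets1 (392 against 756, -0.95), Ikzf1 (128 against 222, -0.80), Myb (-0.63) and Cbfb (-0.39). Rescaling to equal totals ended the calls of Ikzf1, Myb and Cbfb, and 9 partners were then higher in B cells and 1 lower there. The partners that did not pass were Tcf12, Foxo1, Klf2 and Mafk.

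Textbook genes that the factors activate were all higher in B cells, 15 of 15 rows for 14 genes, with a median log2 fold change of 6.88. These genes are also what defines B cells, so that their direction is not independent of the cell type labels. The signalling chains of the B cell receptor, Cd79b (9.11) and Cd79a (8.01), and the surface proteins Ms4a1 (9.03) and Cd22 (8.37) had the largest log2 fold changes on this scale. The adaptors Bank1 (7.49) and Blnk (6.88), the complement receptor Cr2 (7.36 and 6.82 in 2 rows, whose levels are uncertain), the low-affinity IgE receptor Fcer2a (7.15), the class II regulator Ciita (6.50), the kinase Btk (6.19) and the chemokine receptor Cxcr5 (5.84), Cd36 (5.09) and Cd72 (4.42) followed. With T levels near 0 this order partly follows the B level and is not that of the ratio of means. That ratio was 4580 for Cd22, 1490 for Ms4a1, 1160 for Cd79b and 530 for Cd79a, against 1600 for Blnk and 1210 for Btk. Nedd9 was the exception in size (111 ± 8.0 against 53.3 ± 5.0, SD, n = 6 each, 1.05).

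Genes that Pax5 or Bach2 are known to repress went both ways. Of 9 genes 6 were tested, 3 of them higher in B and 3 higher in T, with a median of 0.10. Cd28, the costimulatory receptor of T cells, stood at 0.136 ± 0.0839 against 135 ± 12 (B against T, SD, n = 6 each, log2 fold change -6.91), and Notch1, which directs cells to the T lineage, at 5.96 against 24.7 (-1.89). Prdm1, the plasma cell factor that Bach2 represses, was low in both, at 0.676 and 1.66 (-0.67). Higher in B cells were Jchain, the joining chain of secreted antibody (97.9 ± 28.0 against 0.635 ± 0.445, 5.90), the cytokine receptor Flt3 (2.22 against 0.103, 1.53) and Xbp1, which drives secretion (50.1 against 27.0, 0.87). Jchain and Xbp1 are themselves plasma cell markers. The summed level of 5 plasma cell markers was 100 in the lowest and 185 in the highest B library, to which Jchain gave 50.7 to 131. Csf1r, Ccr2 and Hmox1 were under the filter.

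**Figure D5:**
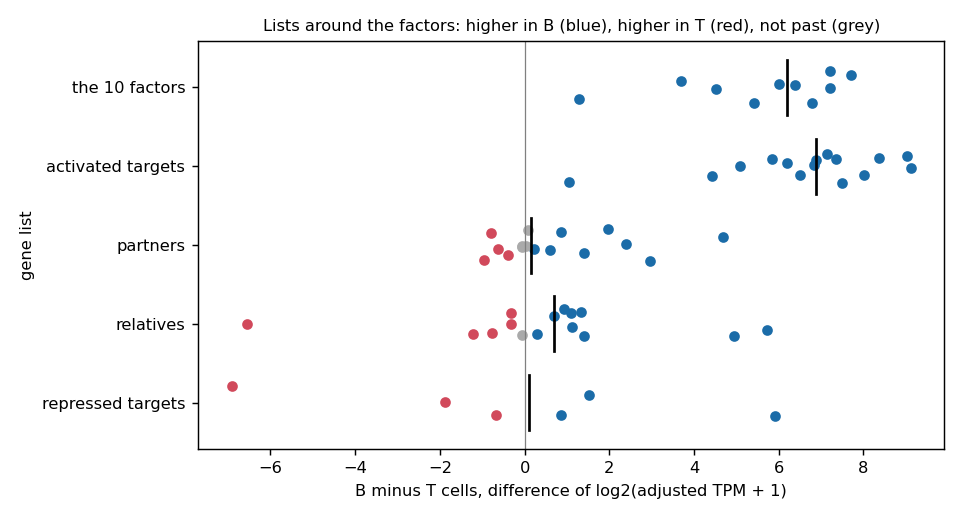
Log2 fold change of B against T cells for the tested genes of 5 lists, with genes past the threshold higher in B cells in blue, those higher in T in red and others in grey, and black bars for list medians. The 10 factors (median 6.19) and activated targets (6.88) lie on the B side, while partners, relatives and repressed targets lie on both sides of 0.

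Irf8 and Spib are also used by myeloid and dendritic cells, whose markers were present in B libraries at low levels. Of 5 monocyte and macrophage markers 3 were tested and all 3 were higher in B cells, with sums of 12 to 16.0 in B libraries and 1.08 to 5.37 in T libraries, most of it Lyz2 (8.89 ± 1.6 in B cells), while Cd14 was at 0.0494. Of 7 dendritic cell markers 6 were tested, 4 higher in B and 2 (Ccr9 and Zbtb46) higher in T. The 7 summed to 6.32 to 13.3 in B libraries and to 5.23 to 6.1 in T libraries, with Siglech at 0.00113 in B cells. Irf8 was at 142 in the B library with the lowest dendritic sum (female B 1) and at 185 in the one with the highest (female B 2), and their part in the level of Irf8 was not tested. Germinal centre markers passed in 3 of 4 genes, all 3 higher in B cells, with Gcsam at 2.14 ± 1.4 (SD, n = 6) and S1pr2 not past. Plasma cell markers passed in 4 of 4 tested genes, all higher in B except Prdm1.

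The gene most like each factor over the 12 libraries was found among 10390 protein-coding genes by Pearson's r of log2(adjusted TPM + 1), a description that mostly follows the difference between the cell types. Pax5 and Bcl11a were nearest to Cyp4f18 (0.9999 and 0.9998), Ebf1 to Hhex (0.9999), Spib to Tnfrsf13c, the BAFF receptor (0.9998), Irf8 to Fcrl1 (0.9997) and Mef2c to Cd24a (0.9999). Pou2af1 was nearest to Gga2 (0.9994), Irf4 to Rnf216 (0.9991) and Pou2f2 to Ikzf3 (0.9984). For 9 of the 10 factors 323 to 627 genes had an r over 0.99. For Bach2 only Nf1 did (0.9917), a gene whose T level was 3.01 adjusted TPM.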

How the data were processed

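RNA of the purified cells was extracted, treated with DNase, spiked with ERCC transcripts, freed of ribosomal RNA and made into stranded libraries, per the labels. The submitters' processing notes name Trim Galore, FastQC, STAR and mm10. The table deposited by the authors holds a signal per gene and library, named adjusted TPM, with a lower and an upper bound. The quantifier, the adjustment and the level of these bounds are not given in the sources used here. The values are not read counts and depth is unknown. All columns of values were assigned to libraries through their labels. Some label fields name genomic DNA although the assay is RNA sequencing, and the values were taken as RNA levels.

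Values were tested as log2(adjusted TPM + 1) with limma 3.58.1 in R 4.3.3, with 1 coefficient for each of 4 groups, a mean-variance trend and Benjamini-Hochberg adjustment over 12520 genes with at least 1 adjusted TPM in at least 3 libraries. Tests were two-sided, and the fit was tested on simulated data. Other steps used Python 3.11.15, numpy 2.4.6, scipy 1.17.1, pandas 2.3.3 and matplotlib 3.10.9. Coordinates, for 97.9% of gene identifiers, come from GENCODE M21 on GRCm38, and promoter sequences from RefSeq on GRCm38.p6.

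The factors and all gene lists were chosen with earlier results of these data known. A few genes of these lists are not reported here, and counts and sums leave them out. All 10 factors are named. Of relatives, partners and targets, genes past the threshold with a log2 fold change of at least 1 are named, and up to 4 per list and direction otherwise. Each factor also has the most correlated gene. The partners that did not pass, and genes named because a setting changed them, were chosen after their values were seen. Alternatives were another pseudocount, filter, scaling and trend, each sex alone, leaving out each library and a replicate block.

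Libraries of both sexes share replicate numbers, which no label explains. Deviations of same-numbered female and male libraries correlated at 0.72, 0.55 and 0.52 in T cells, so that the numbers pair T libraries, as far as the data show, and at -0.17, -0.04 and -0.34 in B cells, where they do not.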

Additional observations from a re-analysis of the deposited data

Results flagged for a closer look

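Among the 10 factors, 20 groups of 6 libraries were examined for a library far from the rest, that is the B and the T libraries for each factor. A library was set apart when its gap to the nearest other passed Dixon's 95% critical value for 6 libraries. The gap was taken as a share of the whole range. For normally distributed values chance alone passes this value in about 1 in 20 groups. The 3 cases found were all in female T 6, for genes under 1 adjusted TPM in every T library. T levels of these genes are near 0, so the rate of 1 in 20 cannot be taken to hold for them. Ebf1 had 0.264 adjusted TPM there, with a gap of 0.838 of the range. Bcl11a had 0.172, with a gap of 0.669, and Pax5 had 0.00218, with a gap of 0.642. Each is below 0.3% of the B cell level, at 0.229% for Ebf1, 0.2% for Bcl11a and 0.00148% for Pax5. In the same library the 4 B cell surface markers had 0.127% to 0.322% of their B cell level, which is the highest among T libraries for each of the 4. The level of Pax5 in this library was thus below that of every marker and of Ebf1 and Bcl11a when set against B cells.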

How the results depend on the processing

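The values hold no counts, so that levels near 0 are limited by the deposited bounds, and T levels of Pax5, Ebf1, Bcl11a and Mef2c should be read as near 0. Each of the 10 factors kept its call of B against T cells in 21 of 21 alternatives. The log2 fold change of Bach2 then ran from 1.22 to 1.67, with 0.00032 as the highest adjusted p, and that of Pax5 from 7.16 to 10.51. Counts of called genes between B and T cells among factors, relatives, partners and targets stayed within 1.5 times in 105 of 105 comparisons with an alternative, but a count in 1 direction moved further in 3. With equal totals relatives higher in T cells went from 5 to 2 and partners from 4 to 1, and with the stricter filter, which tests fewer genes, relatives higher in B cells went from 9 to 5. The fit with a replicate block called 0 of 10 factors between the sexes in B cells and 0 of the 5 it tested in T cells. Among single genes, 1180 values kept direction and call, 17 lost the call, 1 gained it (Mafk, 0.45, rescaled to equal totals) and 14 turned in sign. Rescaling to a total of 1000000 gave 0.05 for Bach1, 0.06 for Irf9, 0.32 for Irf3, 0.31 for Tcf12 and 0.30 for Foxo1, and median-ratio scaling gave 0.04 for Irf3, 0.03 for Tcf12 and 0.02 for Foxo1. Klf2, which did not pass, turned to -0.05 without female B replicate 1, -0.01 without male B replicate 2, -0.03 without female T replicate 6, -0.05 without male T replicate 6, -0.02 in males only and -0.10 without both T libraries numbered 6, and was at most 0.1 when any other library was left out. Runx1 (0.21) lost its call in 11 alternatives, with values from 0.17 to 0.22. The median of all tested genes was -0.09 as deposited, -0.01 with median-ratio scaling and 0.26 with equal totals, and the share of called genes that were higher in B cells was 43.0%, 50.8% and 71.6%. Without a filter 24591 genes were called between B and T cells, against 9134 of 12520 with it. The difference between sex effects, with 0 calls and 295 genes at an unadjusted p under 0.05 by limma, gave 20 calls with equal totals and 11201 without a filter, with 0 factors among the calls in each. The cause of these shifts was not tested.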
